A study of Mus musculus with 30 samples.

Results

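A set of 10 genes that restrain mitogen-activated protein kinase (MAPK) signalling was followed in mouse satellite cells (muscle stem cells) at rest, after injury and in old mice. The genes were chosen by name as feedback inhibitors of ERK and MAPK signalling, not by their values, though with earlier results of these data known. They were Spry1, Spry2, Spry4, Spred1, Spred2, Dusp1, Dusp4, Dusp5, Dusp6 and Dusp10. All 10 were found among the 55154 gene identifiers that matched over the 3 deposited count tables. RNA-seq counts came from 30 libraries in 15 groups of 2, all of satellite cells from hindlimb muscle of C57BL/6 mice. Paraformaldehyde was perfused before isolation, per the labels' treatment protocol, so that the cells were fixed in place, but a group of old cells named below is called freshly isolated. Uninjured cells, the control, received no treatment. Hindlimb muscle of the other younger groups was injured by injection of BaCl2 and sampled after 0.5, 1, 2, 4, 8, 16, 32 or 60 h, or after 7, 14 or 28 days. A further 3 groups came from mice called old, with no age in the labels for any group. These were untreated cells fixed in place (oQSC), cells taken 2.5 days after injury (oASC), and cells called freshly isolated (oFISC), whose labels give both BaCl2 injury and fresh isolation. No label says whether the 2 libraries of a group came from different animals. A p-value thus measures the spread between libraries of a group, which may be technical. That spread was estimated over all groups of a fit together, not from the 2 groups compared alone.

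Growth factor receptors pass their signal through Ras and a kinase chain to ERK, and active ERK switches on genes that turn the chain down again. Sprouty proteins (Spry) act near the membrane between receptor and Ras. Spred proteins bring the Ras inactivator neurofibromin to the membrane. Dual specificity phosphatases (Dusp) remove the activating phosphates from the kinases themselves. Dusp1, Dusp4 and Dusp5 work in the nucleus and Dusp6 in the cytoplasm, with Dusp5 and Dusp6 selective for ERK, and Dusp10 acts on the stress kinases p38 and JNK. In muscle, Spry1 is known as a quiescence gene that activated satellite cells need in order to become quiescent again. ERK and p38 both drive exit from quiescence.

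Promoter sequence is given for 3 genes that stand for 3 patterns described here. Dusp1 rose within 0.5 h and fell back, and Dusp5 was highest at 60 h. Spry1 was high at rest, highest at 0.5 h and fell late. Windows of 8 of the 10 genes, all but Spry4 and Dusp4, were taken from RefSeq (GRCm38.p6). Matches were searched on both strands in the 250 bases before the start. Shown 5′ to 3′ on the gene's own strand are the bases from 250 to 51 before the start, clear of the gene's own exons in GENCODE M21. Exons of models on the opposite strand, Gm42922 and AC137853.2, overlap the Spry1 and Dusp5 stretches. Capitals mark a cAMP response element (TGACGTCA), its core (TGACG) or a serum response element, and the core lies within the full element.
Dusp1: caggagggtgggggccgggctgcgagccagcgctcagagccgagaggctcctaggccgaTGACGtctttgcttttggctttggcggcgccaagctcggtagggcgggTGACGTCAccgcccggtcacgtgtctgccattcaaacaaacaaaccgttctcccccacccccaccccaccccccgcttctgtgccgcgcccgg
Dusp5: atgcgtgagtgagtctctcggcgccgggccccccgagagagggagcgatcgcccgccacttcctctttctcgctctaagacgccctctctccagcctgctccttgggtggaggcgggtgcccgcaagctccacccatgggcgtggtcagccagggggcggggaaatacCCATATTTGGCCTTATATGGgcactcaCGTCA
Spry1: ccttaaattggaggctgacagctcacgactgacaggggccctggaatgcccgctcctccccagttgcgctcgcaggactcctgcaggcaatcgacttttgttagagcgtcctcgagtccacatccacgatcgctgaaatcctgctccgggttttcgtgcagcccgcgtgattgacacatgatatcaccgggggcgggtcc
These stretches are chr17:26508523-26508722 on the minus strand, chr19:53528895-53529094 on the plus strand and chr3:37639697-37639896 on the plus strand. The Dusp1 window holds 1 full cAMP response element, starting 143 bases before the start, and cores at 191, 143 and 140 bases, of which the last 2 are the arms of the full element. The Dusp5 window holds a pair of serum response elements at 82 and 72 bases and a core at 55. None of these motifs, nor an AP-1 site (TGANTCA) or ETS core (CCGGAA), was found in the Spry1 window. Of 32851 windows of this length, 1.55% held the full cAMP response element, 17.8% its core and 1.47% a serum response element. An AP-1 site was found in 6.75% and an ETS core in 12% of them. A match is a description of the letters only.

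In GENCODE M21 (GRCm38, the mm10 genome of the submitters' processing notes) the models are Spry1 (ENSMUSG00000037211, chr3:37639947-37644598), Spry2 (ENSMUSG00000022114, chr14:105891947-105896819), Spred1 (ENSMUSG00000027351, chr2:117121374-117182279), Spred2 (ENSMUSG00000045671, chr11:19924375-20024026) and Dusp1 (ENSMUSG00000024190, chr17:26505590-26562128). The others include Dusp4 (ENSMUSG00000031530, chr8:34807297-34819894), Dusp5 (ENSMUSG00000034765, chr19:53529109-53542431), Dusp6 (ENSMUSG00000019960, chr10:99263231-99267489) and Dusp10 (ENSMUSG00000039384, chr1:184013302-184075636). The strand that was counted is not given. The Dusp1 model overlaps Ergic1 and 3 other models, Dusp10 overlaps 1700056E22Rik, Dusp5 an antisense model (AC137853.2) Spry1 the model Gm42922, and Spry4 the models Gm27369 and Gm27804 on the other strand. Reads there cannot be told apart by strand, so values of these 5 genes carry that uncertainty.

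Library totals ranged from 9.18 to 57.4 M counts. Markers of satellite cells, 8 genes, summed to 3599 to 3795 CPM in uninjured cells and to 21300.0 to 24450.0 in oQSC, with none at 0 in either. The higher sum lay in Sdc4, at 586 to 756 and 16850.0 to 20360.0 CPM, and Vcam1, at 128 to 137 and 2473 to 2941, while Itga7 was at 352 to 439.8 and 77.2 to 104. Of the 8 genes 2 were called higher and 2 lower in oQSC, against 12.3% and 9.31% of all genes. Library 2 at 0.5 h, for example, is written 0.5 h 2. Pax7, a marker of satellite cells, was at 1746 and 1555 CPM (counts scaled to library size) in the 2 uninjured libraries and at 84.5 and 72.7 in the untreated old libraries. Myod1, which marks activated cells, was at 41.4 and 50.8 CPM in the former and at 1070.0 and 1536 in the latter. The untreated old cells, called by their label oQSC here, thus had less Pax7 than younger uninjured cells. Their Myod1 went against what a quiescent state leads one to look for. Of the other satellite cell markers, Calcr was at 147 to 180 CPM in uninjured cells and 311 to 317 in oQSC, and Myf5 at 185 to 434 and 637 to 843. Chrdl2 was at 216 to 263.5 and 238 to 252, but also at 256 to 325 at 1 h after injury. Cdh15 was at 126.8 to 142.3 in uninjured cells and 61.7 to 126.7 in oQSC. Within the groups at 0.5, 1, 2 and 4 h the 2 libraries stood far apart, with Myod1 at 119 and 1508 CPM at 0.5 h and at 88.3 and 2165 at 4 h. Markers of other cell types were low in uninjured cells, summed over 7 genes each at 36 to 71.2 CPM for endothelial cells, 153 to 159 for fibro-adipogenic cells and 4.18 to 5.51 for macrophages, with 1, 1 to 3 and 3 of the 7 at 0. From 0.5 to 32 h the same sums were 62 to 210.5 CPM for endothelial cells and 11.2 to 504 for macrophages, and for fibro-adipogenic cells above both uninjured libraries in every library and up to 559.9. Myofibre markers, 7 genes, summed to 3.21 to 10.8 CPM in uninjured cells and, from 0.5 to 32 h, to 19.4 to 171. Up to 5 of 7 were called higher, at 1, 4 and 8 h, against 6.57%, 7.18% and 16.1% of all genes. Neutrophil markers, 6 genes, summed to 1.19 to 1.35 CPM in uninjured cells and then to 2.29 to 55 CPM. Up to 4 of 5 tested were called higher, at 16 h, against 14.2% of all genes. No macrophage marker was called before 32 h, where 5 of 7 were called higher, against 14.1% of all genes. Fewer cells of a type and less RNA per cell cannot be told apart in such bulk samples, and the part of these cells in the changes below was not tested.

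In quiescent uninjured cells Spry1, Spry2, Spred1 and Spred2 lay above most of the phosphatases, which like Spry4 were at low levels. Spry1 was at 134 and 161 CPM (values of the 2 libraries, on 1 scale of trimmed-mean normalized counts over all 30). Spred2 was at 90.2 and 126 and Spred1 at 59.4 and 48.1. Spry2 reached 29 and 36 and Spry4 11.3 and 6.97. Dusp1 alone among the phosphatases was well above this low end, at 75.2 and 47.7 CPM. Dusp10 stood at 7.53 and 5.72, Dusp6 at 7.26 and 1.81, Dusp4 at 3.58 and 1.86 and Dusp5 at 2.3 and 2.37 CPM. Per kilobase of exon, which allows levels of different genes to be compared, Spry1 had the highest mean of the 10 in uninjured cells (50.8 CPM per kb), before Spred2 (23.4) and Dusp1 (18.6). Over all 30 libraries, Dusp1 was the highest of the 10 per kilobase in 16, Spry2 in 6, Spry1 in 4, and Dusp5 and Dusp10 in 2 each. Dusp4 was the lowest in 13 libraries and Spred2 in 9.

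**Figure D1:**
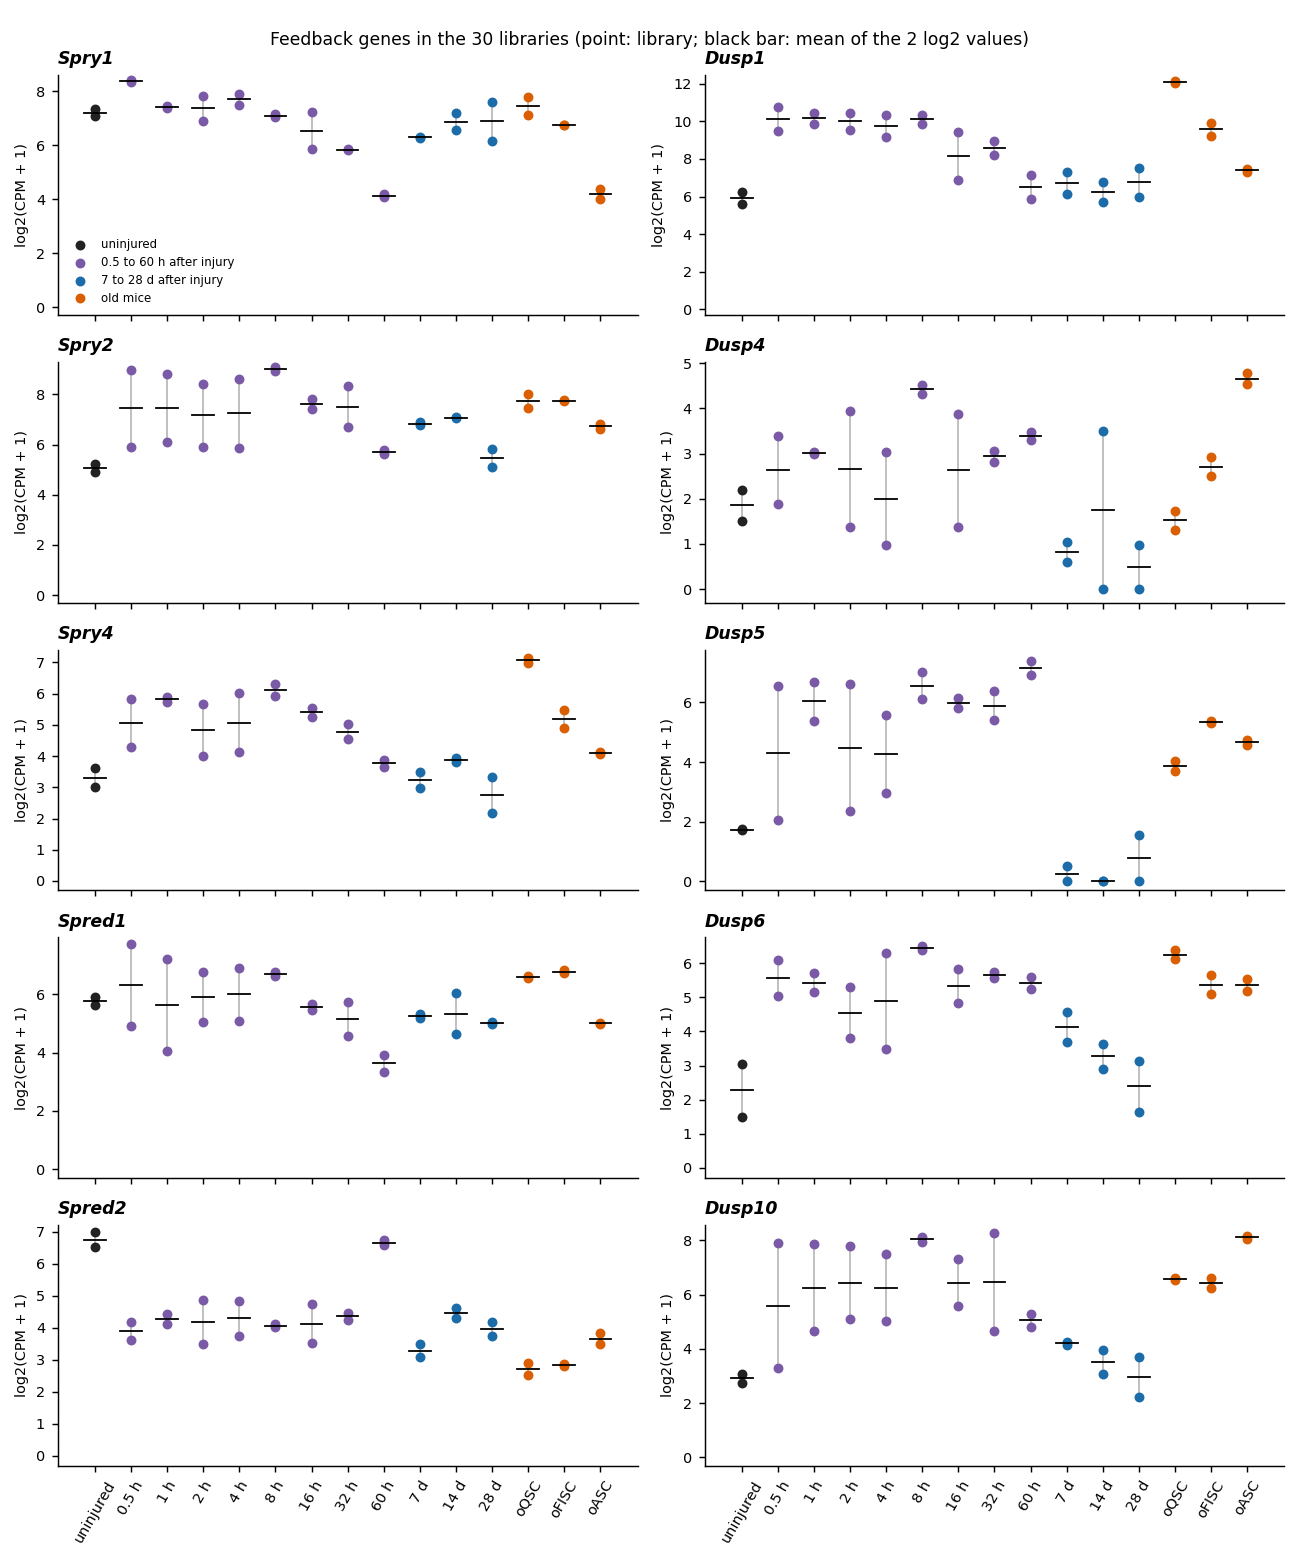
Level of each of the 10 genes in each library, as log2(CPM + 1), in the 15 groups. Points are libraries (black uninjured, purple 0.5 to 60 h, blue 7 to 28 days, orange old mice), black bars the mean of the 2 log2 values. Dusp1 is highest in oQSC, Dusp5 at 60 h and Spry1 at 0.5 h, and Spred2 is near 100 CPM only in the uninjured and 60 h groups.

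Within the first 4 h after injury Dusp1 rose by 3.92 to 4.28 on the log2 scale and Spred2 fell, while Spry2, Dusp5 and Dusp10 were higher in every library but did not pass the test. Against uninjured cells, 3 of the 10 genes changed at 0.5 h (10.3% of all genes, 6.88% higher and 3.42% lower), by edgeR's quasi-likelihood test with Benjamini-Hochberg adjustment over 22479 genes and a threshold of 0.05. At 1 h 4 of 10 changed (10.2% of all genes, 6.57% higher and 3.64% lower), at 2 h 2 of 10 (9.31% of all genes, 6.32% higher and 2.99% lower) and at 4 h 3 of 10 (11% of all genes, 7.18% higher and 3.8% lower). All these comparisons share the 2 uninjured libraries. The median log2 change of the 10 was between 2.21 and 2.79 at these times, against 0.16 to 0.24 over all genes tested.

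Of the phosphatases, Dusp1 was at 726 and 1709 CPM at 0.5 h, 935 and 1393 at 1 h, 1388 and 753 at 2 h and 580.1 and 1304 at 4 h. Every one of these 8 libraries was above both uninjured ones. Dusp1 rose by 4.28 ± 0.86 on the log2 scale at 0.5 h (± SE; adjusted p = 0.0112) and by 3.92 ± 0.85, adjusted p = 0.015 at 4 h. With 1 library left out its adjusted p became 0.0802 without uninjured 1 and 0.0878 without uninjured 2 at 0.5 h, and 0.076 to 0.106 without 4 h 2, uninjured 1 or uninjured 2 at 4 h. At 1 h it became 0.0798 without uninjured 1 and 0.0912 without uninjured 2, and at 2 h 0.0591 to 0.104 without 2 h 1, uninjured 1 or uninjured 2. Dusp6, the cytoplasmic ERK phosphatase, was at 31.8 and 67.4 CPM at 0.5 h, 34.5 and 51.9 at 1 h, 38.3 and 13.1 at 2 h and 10.3 and 78.7 at 4 h. It passed the test at 0.5 h (3.44 ± 0.93, adjusted p = 0.0358), 1 h (3.26 ± 0.92, adjusted p = 0.042) and 4 h (3.30 ± 0.92, adjusted p = 0.0396) and did not at 2 h (2.55 ± 0.90, adjusted p = 0.0904). Leaving out 1 library gave 0.0803 to 0.19 without 0.5 h 2, uninjured 1 or uninjured 2 at 0.5 h. The corresponding adjusted p was 0.0598 to 0.223 without 1 h 1, 1 h 2, uninjured 1 or uninjured 2 at 1 h, and 0.0819 to 0.463 without 4 h 2, uninjured 1 or uninjured 2 at 4 h.

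The other phosphatases differed most between libraries of the same time. Dusp5 was at 3.13 and 91.5 CPM at 0.5 h, 40.9 and 102 at 1 h, 96.5 and 4.14 at 2 h and 6.87 and 47.2 at 4 h. Dusp10 was at 8.71 and 239.9, 24.3 and 231, 222 and 33 and 31.6 and 178 CPM at these 4 times. All 8 libraries exceeded the uninjured ones for both genes, yet neither passed the test (log2 changes at 0.5 h of 4.32 ± 1.55, adjusted p = 0.0929 for Dusp5 and 4.22 ± 1.68, adjusted p = 0.123 for Dusp10). Dusp4 stayed between 0.97 and 14.5 CPM and overlapped the uninjured libraries at 0.5, 2 and 4 h.

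Among the Sprouty genes, Spry1 reached its highest level of all groups at 0.5 h, 336 and 326 CPM, above both uninjured libraries, with a log2 change of 1.13 ± 0.42, adjusted p = 0.1 that did not pass. By 1 h it was at 164 and 176 CPM. Spry4 was at 18.4 and 55.1, 58.5 and 52.5, 50.1 and 15 and 16.5 and 63.5 CPM at the 4 times and passed only at 1 h, where its 2 libraries lay close (2.59 ± 0.72, adjusted p = 0.0396). That call was lost with any of 4 libraries left out (adjusted p 0.0812 to 0.21 without 1 h 1, 1 h 2, uninjured 1 or uninjured 2). Spry2 was at 58.1 and 506, 68 and 447, 344 and 58.6 and 57.2 and 392 CPM, with log2 changes from 2.67 ± 1.21 to 3.10 ± 1.23 and adjusted p from 0.122 to 0.175.

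The 2 Spred genes went different ways. Spred1 was at 28.9 and 211, 15.7 and 148, 108 and 32.1 and 32.7 and 119.5 CPM, below both uninjured libraries in 1 library of each group and above them in the other. Spred2 was at 17.3 and 11.4, 20.5 and 16.4, 10.2 and 28 and 27.5 and 12.5 CPM, far below the uninjured libraries in all 8. It fell by 2.96 ± 0.55 at 0.5 h (log2, adjusted p = 0.0078) and by between 2.46 and 2.57 at 1, 2 and 4 h (adjusted p 0.0124, 0.015 and 0.0153). Without 1 library these calls were lost, with adjusted p of 0.0789 without 0.5 h 2 and 0.051 without uninjured 2 at 0.5 h, and 0.0551 to 0.107 without 1 h 1, 1 h 2, uninjured 1 or uninjured 2 at 1 h. For 2 h it was 0.0676 to 0.133 without 2 h 1, uninjured 1 or uninjured 2, and for 4 h 0.0676 to 0.153 without 4 h 2, uninjured 1 or uninjured 2.

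The gap between the 2 libraries of these early groups ran the same way for most of the genes. In each of the 4 groups the library with more Myod1 also had more Spry2 (5.87 to 8.72 times the other library), Spred1 (3.37 to 9.42 times), Dusp10 (5.64 to 27.6 times) and Dusp5 (2.50 to 29.2 times). The same library had more Dusp1 (1.49 to 2.35 times), Dusp4 (1.04 to 9.08 times) and Dusp6 (1.51 to 7.66 times) in all 4 groups, and more Spry4 in 3 of 4. For Spry1 the ratio was 0.514 to 1.31, higher in 2 of 4. Spred2 and Pax7 were lower in the library with more Myod1 in all 4 groups, Spred2 at 0.365 to 0.801 times the other. Spry2 and Dusp10 thus varied more within a time point than between the means of these 4 times. At 16 and 32 h the library with more Myod1 was not always the higher one: it had 0.504 times the Dusp5, 0.877 times the Dusp6 and 0.707 times the Spry4 of the other at 32 h, and 0.875 times the Spred1 at 16 h. It had more Spry2, Dusp1, Dusp4 and Dusp10 at both times.

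**Figure D2:**
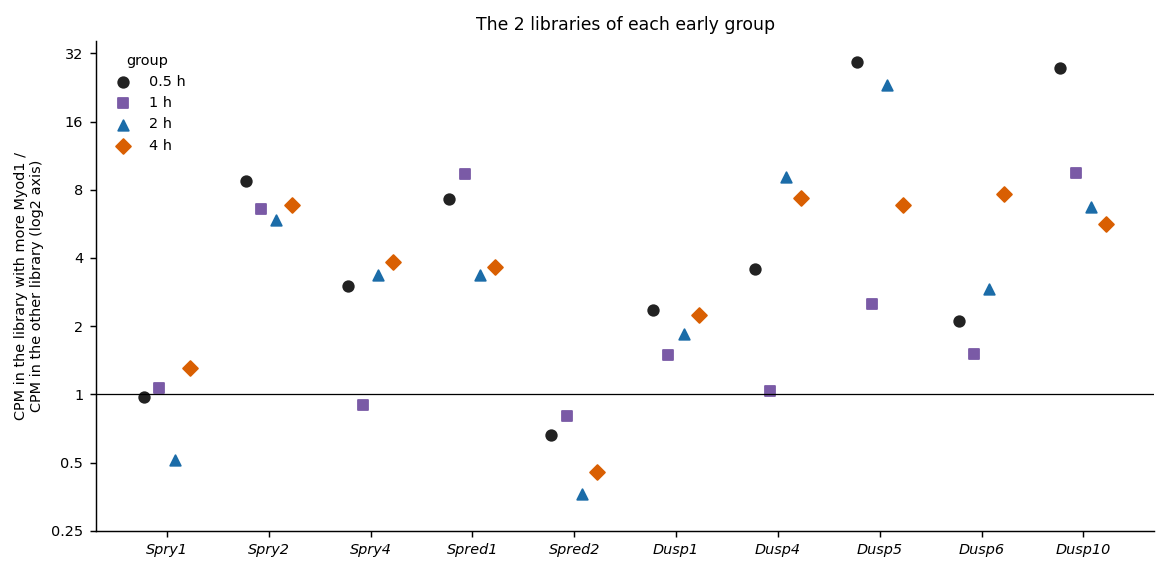
Ratio of CPM between the 2 libraries of the 0.5, 1, 2 and 4 h groups, library with more Myod1 over the other, on a log2 axis, for each gene (symbols: groups). Points of Spry2, Spred1, Dusp1, Dusp4, Dusp5, Dusp6 and Dusp10 lie above 1 in all 4 groups, and those of Spred2 lie below 1 in all 4, between 0.365 and 0.801.

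At 8 h 7 of the 10 genes changed against uninjured cells, 6 up and 1 down (30.1% of all genes, 16.1% higher and 14% lower). In the main fit this was the most of the 8 times to 60 h, and the share of all genes was the largest too. The median log2 change of the 10 was 3.42, against 0.00 for all genes. Spry2 reached its highest level of all groups, 489.9 and 538 CPM, which was 3.95 ± 1.28, adjusted p = 0.0355 above uninjured cells. Spry4 was at 59.7 and 78 CPM (2.89 ± 0.73, adjusted p = 0.0136). Dusp1 was at 929.9 and 1298 CPM (4.15 ± 0.86, adjusted p = 0.00645), not far from its level at 0.5 h. Dusp6 peaked among the younger groups at 90.2 and 83.6 CPM (4.25 ± 0.96, adjusted p = 0.00893). Dusp5 was at 67.6 and 128 (5.36 ± 1.62, adjusted p = 0.0276) and Dusp10 at 246 and 277 CPM (5.28 ± 1.77, adjusted p = 0.0402). In all of these the 8 h and uninjured libraries did not overlap. Their SE rests on the spread in all groups of the time course fit, also the early groups whose libraries stood far apart. Spred2 was the 1 gene that fell, to 15.2 and 16.4 CPM (-2.80 ± 0.55, adjusted p = 0.00513), and this call held whichever library was left out.

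Spry1 at 8 h, 139.8 and 131 CPM, overlapped the uninjured values. Spred1 (108 and 97.1 CPM) and Dusp4 (19 and 21.9 CPM) were above both uninjured libraries, with adjusted p of 0.512 and 0.0804. The calls of Spry2, Dusp5 and Dusp10 at 8 h were lost without any 1 of the 4 libraries, and that of Spry4 without any of 3. Adjusted p rose to 0.0818 to 0.156 without 8 h 1, 8 h 2, uninjured 1 or uninjured 2 for Spry2, and to 0.0569 to 0.0904 without 8 h 2, uninjured 1 or uninjured 2 for Spry4. It rose to 0.058 to 0.132 without 8 h 1, 8 h 2, uninjured 1 or uninjured 2 for Dusp5. The corresponding range for Dusp10 was 0.0868 to 0.173 without 8 h 1, 8 h 2, uninjured 1 or uninjured 2. For Dusp1 it was 0.051 without uninjured 2, and for Dusp6 0.063 without uninjured 2.

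Dusp1 and Dusp6 were higher and Spred2 lower than in uninjured cells at both 16 and 32 h, Dusp5 and Spry4 passed at 16 h, and Spry1 was lower at 32 h. At 16 h 5 of the 10 genes changed against uninjured cells (22.7% of all genes, 14.2% higher and 8.5% lower), and at 32 h 4 of 10 (20.5% of all genes, 14.1% higher and 6.44% lower). Over all genes 3186 were higher and 1910 lower at 16 h, and 2491 and 2307 with RLE size factors. At 32 h these numbers were 3169 and 1447, and 2471 and 1801 with RLE. The median of all genes moved with this scaling from 0.11 to -0.03 at 16 h, from 0.25 to 0.01 at 32 h, from 0.18 to 0.06 at 2 h, from 0.17 to 0.06 at 4 h and from 0.49 to 0.36 for oQSC against uninjured cells. No called change of the 10 genes reversed. Dusp1 was at 694 and 115 CPM at 16 h (2.73 ± 0.81, adjusted p = 0.03) and at 502 and 290.5 at 32 h (2.70 ± 0.81, adjusted p = 0.0331). Dusp6 was at 55.8 and 27.6 (3.23 ± 0.92, adjusted p = 0.0256) and then 46 and 52.5 CPM (3.46 ± 0.93, adjusted p = 0.0211). Dusp5 was at 69.3 and 55.4 CPM at 16 h (4.75 ± 1.58, adjusted p = 0.0471) and at 41.4 and 82.2 at 32 h, where it missed the threshold (4.71 ± 1.58, adjusted p = 0.0513). Spry4 passed at 16 h, at 45.2 and 37.2 CPM (2.19 ± 0.71, adjusted p = 0.0426). Its level at 32 h was 22.2 and 31.4 CPM (adjusted p = 0.129). Spry1 was at 57.2 and 148 CPM at 16 h and at 55.1 and 56.9 at 32 h, now below both uninjured libraries (-1.40 ± 0.42, adjusted p = 0.0336). Spred2 stayed low, at 10.5 and 25.7 and then 17.9 and 21.3 CPM (log2 -2.57 ± 0.54, adjusted p = 0.00688 and -2.46 ± 0.54, adjusted p = 0.00825).

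Dusp10 was split at both times, at 159 and 46.5 and 307 and 24.5 CPM, and so was Spry2 at 32 h, at 318 and 103 CPM. None of these passed. In the 32 h library with the lower values, library 2, markers of macrophages summed to 504 CPM, the most of all 30 libraries, against 104 in the other, and their part in the gap was not tested. Against the time before, no gene of the 10 changed from 8 to 16 h (0.0089% of all genes, 0.00445% higher and 0.00445% lower) or from 16 to 32 h (0.796% of all genes, 0.761% higher and 0.0356% lower), with edgeR or DESeq2, and none had an unadjusted p under 0.05 in edgeR. Calls at 16 h moved with single libraries, with adjusted p of 0.106 to 0.489 without 16 h 1, uninjured 1 or uninjured 2 for Dusp1, and 0.0979 to 0.214 without 16 h 1, 16 h 2, uninjured 1 or uninjured 2 for Spry4. For Dusp6 it was 0.0501 to 0.16 without 16 h 1, uninjured 1 or uninjured 2, for Spred2 0.0679 without 16 h 1. For Dusp5 it was 0.0918 to 0.198 without 16 h 1, 16 h 2, uninjured 1 or uninjured 2. At 32 h the range was 0.0973 to 0.159 without 32 h 1, 32 h 2, uninjured 1 or uninjured 2 for Spry1, and 0.0568 to 0.182 without 32 h 1, 32 h 2, uninjured 1 or uninjured 2 for Dusp1. Dusp6 had 0.063 to 0.141 without 32 h 1, 32 h 2 or uninjured 2, and Spred2 had 0.0707 without 32 h 1 and 0.0558 without uninjured 2.

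By 60 h Spry1 had fallen by 3.18 on the log2 scale below uninjured cells, Dusp5 had reached its highest level and Dusp1 had returned towards rest. Of the 10 genes 3 changed against uninjured cells (28.3% of all genes, 15.5% higher and 12.8% lower). Spry1 was at 17 and 15.7 CPM, the lowest of all groups, with a log2 change of -3.18 ± 0.45, adjusted p = 0.000485 that held under each alternative run. Dusp5 was at 167 and 120.1 CPM (5.93 ± 1.66, adjusted p = 0.0193) and Dusp6 at 36.7 and 47.2 (3.22 ± 0.92, adjusted p = 0.0209). Without 1 library their adjusted p was 0.051 to 0.112 without 60 h 1, uninjured 1 or uninjured 2 for Dusp5. It was 0.0692 without 60 h 2 and 0.138 without uninjured 2 for Dusp6. Dusp1 was at 58.4 and 139 CPM, overlapping the uninjured libraries. Spry2 (48.7 and 54.1 CPM), Spry4 (13.5 and 11.7), Dusp4 (10.1 and 8.9) and Dusp10 (38.4 and 27.1) did not pass. Nor did Spred1, at 14 and 9.15 CPM below both uninjured libraries (-2.22 ± 1.07, adjusted p = 0.134). Of markers of other cells, 4 of 7 for macrophages and 3 of 7 for myofibres were called higher at 60 h, against 15.5% of all genes. The endothelial, fibro-adipogenic, pericyte and smooth muscle, and Schwann lists had 2 called lower each, against 12.8%, and the first 2 of these lists had 1 higher each. The part of these cells in the changes was not tested.

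From 32 to 60 h 2 of the 10 genes changed (3.69% of all genes, 1.04% higher and 2.65% lower). Spry1 fell by 1.78 ± 0.42 (log2; adjusted p = 0.0372) and Spred2 rose by 2.35 ± 0.54 (adjusted p = 0.0318). Both calls were lost without any 1 of the 4 libraries (Spry1 0.0945 to 0.256 without 32 h 1, 32 h 2, 60 h 1 or 60 h 2, Spred2 0.138 to 0.162 without 32 h 1, 32 h 2, 60 h 1 or 60 h 2). Tested for any change over the uninjured and the 8 injured groups to 60 h, 3 of 10 genes passed (24.7% of all genes did): Spry1 (adjusted p = 0.00136), Spred2 (0.00183) and Dusp1 (0.0153). That count was 5 without 4 h 1 or 4 h 2, with Dusp6 and Spry4 added, and 2 without uninjured 1 or uninjured 2, with Dusp1 lost.

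**Figure D3:**
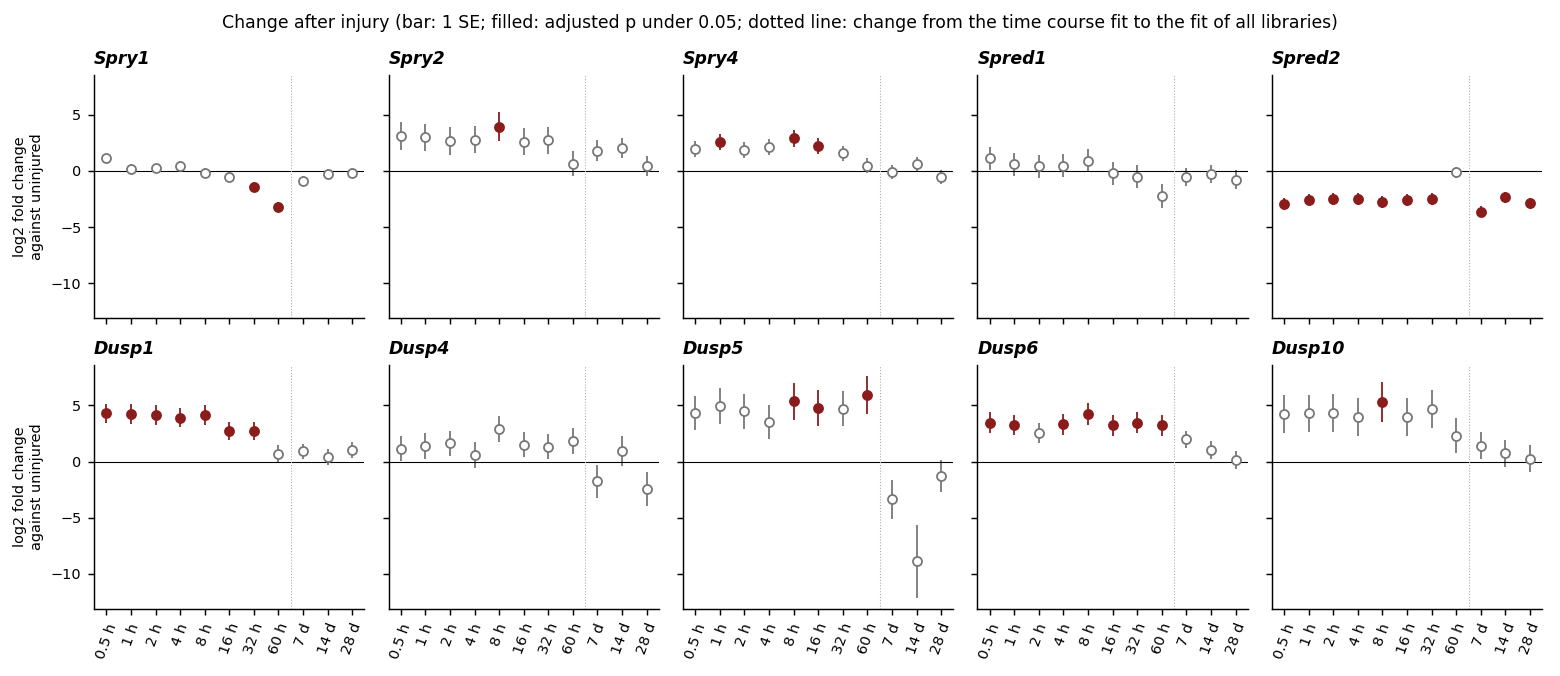
Log2 fold change of each gene against uninjured cells at 11 times after injury, with 1 SE; filled red points passed an adjusted p under 0.05. Times to 60 h come from the fit of the time course and later ones from the fit of all 30 libraries. Spred2 passes at every time but 60 h, Dusp1 from 0.5 to 32 h, and Spry1 at 32 and 60 h.

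Spred2 was high at rest and again at 60 h. Its level was 90.2 and 126 CPM in uninjured cells and 105 and 95.4 CPM at 60 h, and between 4.77 and 28.0 CPM in the 26 libraries of the other 13 groups. The same 4 libraries had the largest share of counts in 4 gene models that hold ribosomal RNA (Gm42418, Gm26917, AY036118 and Rn45s), 14.6% to 20.7%, against 0.261% to 4.27% in the other 26. Over the 30 libraries Pearson's r of log2 Spred2 with the log2 share was 0.835, a description over libraries that share their groups. For the other 9 genes r lay between -0.475 and 0.386. The part of whatever sets this share in the Spred2 values was not tested. With the 4 models left out of the table, Spred2 kept its calls at each of the 10 times. This run removes only the counts of those models, so it cannot tell whether whatever sets their share also moved Spred2. Its relative Spred3, on a list of the remaining Sprouty, Spred and MAPK phosphatase genes, fell with it at 8 h, from 26.8 ± 6.63 to 5.02 ± 2.68 CPM (mean ± SD, n = 2; log2 -2.44 ± 0.54, adjusted p = 0.0082), but was low at 60 h as well (-1.98 ± 0.53, adjusted p = 0.0158).

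**Figure D4:**
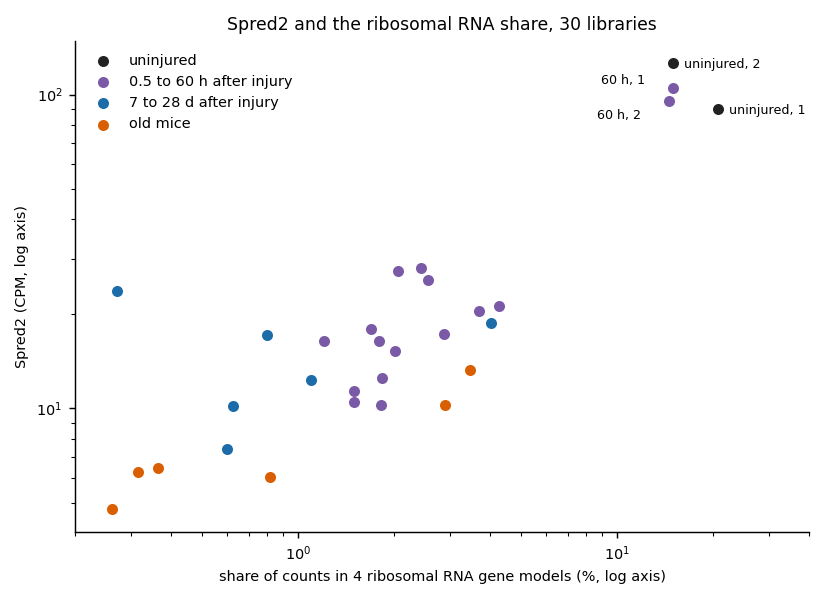
Spred2 level (CPM) against the share of each library's counts in 4 ribosomal RNA gene models (%), both on log axes, one point per library. The 2 uninjured and the 2 libraries at 60 h lie apart from the other 26, at 14.6% to 20.7% and 90.2 to 126 CPM.

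From 7 to 28 days after injury Spred2 was the 1 gene of the 10 that passed the test against uninjured cells. These late libraries were deposited in a count table of their own, so time and table cannot be told apart here. At 7 days 1 of the 10 genes changed against uninjured cells (11.2% of all genes, 5.84% higher and 5.35% lower), at 14 days 1 (12.8% of all genes, 6.51% higher and 6.33% lower) and at 28 days 1 (6.49% of all genes, 2.29% higher and 4.2% lower), over 28823 genes in the fit of all 30 libraries, and it was Spred2 each time. Its level was 10.2 and 7.43 CPM at 7 days (-3.62 ± 0.52, adjusted p = 0.000147), 23.6 and 18.7 at 14 days (-2.35 ± 0.49, adjusted p = 0.0032) and 12.3 and 17.1 at 28 days (-2.88 ± 0.50, adjusted p = 0.00161). At 14 days the call was lost when only the 2 groups compared were fitted (adjusted p = 0.0518). Spry1 was at 75.4 and 78.6, 92.6 and 146 and 71.1 and 192 CPM at these times, below the uninjured range at 7 days (adjusted p = 0.191) and overlapping it later. Spry2 was above it at 7 days (118 and 109 CPM) and 14 days (132 and 135), with adjusted p of 0.227 and 0.155, and overlapped it at 28 days (33.2 and 56). Dusp1 was at 70.7 and 159, 51.1 and 108 and 61.7 and 186 CPM and overlapped it at each time. Dusp6 went from 12 and 22.7 CPM at 7 days to 2.14 and 7.75 at 28 days, and Dusp10 from 16.9 and 18.1 to 3.74 and 12.1. Myofibre markers summed to 121.5 to 226.1 CPM at 14 days and 29.55 to 168.8 at 28 days, against 3.21 to 10.8 in uninjured cells. At both times 5 of 7 were called higher, against 6.51% and 2.29% of all genes, and none at 7 days. The part of such cells in these values was not tested.

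Against 60 h, 3 of the 10 genes changed at 7 days (16.8% of all genes, 7.89% higher and 8.86% lower), and each call held whichever library was left out. Time and count table cannot be told apart in this comparison either. Spry1 rose by 2.23 ± 0.46 (log2; adjusted p = 0.00204) and Spred2 fell by 3.51 ± 0.52 (adjusted p = 8.89e-05). Dusp5 fell by 9.30 ± 1.88 (adjusted p = 0.00184), from 167 and 120.1 to 0.439 and 0 CPM. At 14 days Dusp5 had no count in either library. With a floor of 3 counts over the group it was at least 1210-fold lower there than at 60 h and, against uninjured cells, at least 19.7-fold lower, for counting error only. At 28 days it was at 0 and 1.92 CPM. Among the 3 late groups 9 of the 10 genes had enough counts to be tested (Dusp5 had not). None changed between 7 and 14 days (0.0531% of all genes, 0.0472% higher and 0.0059% lower) or 7 and 28 days (0.295% of all genes, 0.0826% higher and 0.212% lower) in edgeR. There, 1 gene had an unadjusted p under 0.05 in each comparison, Spred2 and Spry2, and DESeq2 called Spry2 between 7 and 28 days.

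In old mice, untreated cells carried the highest Dusp1 and Spry4 levels of the whole series. Dusp1 was at 4584 and 4281 CPM in oQSC and Spry4 at 141 and 124. Compared with younger uninjured cells, 6 of the 10 genes differed, 5 higher and 1 lower (21.6% of all genes, 12.3% higher and 9.31% lower). Dusp1 differed by 6.17 ± 0.87, adjusted p = 3.71e-05 and Spry4 by 3.86 ± 0.66, adjusted p = 0.000239. Dusp6 was at 68.2 and 82.4 CPM (4.08 ± 0.85, adjusted p = 0.00142), Spry2 at 254 and 177 (2.73 ± 0.95, adjusted p = 0.0438) and Dusp10 at 91.9 and 97.7 (3.84 ± 1.32, adjusted p = 0.0413). Spred2 was lower, at 4.77 and 6.44 CPM (-4.27 ± 0.53, adjusted p = 1.08e-05). Spry1, at 138 and 218 CPM, overlapped the younger cells. The median of the 10 was 2.64, against 0.49 over all genes. Without 1 library the adjusted p became 0.0901 to 0.237 without oQSC 1, oQSC 2, uninjured 1 or uninjured 2 for Spry2. It became 0.11 to 0.24 without oQSC 1, oQSC 2, uninjured 1 or uninjured 2 for Dusp10.

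Age cannot be told apart from the count table here, since the old cells were deposited in a table of their own with another set of gene identifiers. Pax7 was low and Myod1 high in these libraries, as given above. Their summed markers were also higher than in uninjured cells, at 666 to 752 CPM for fibro-adipogenic cells, 115 to 143 for endothelial cells and 123 to 154 for macrophages, with no marker of these lists at 0. Myofibre markers summed to 96.9 to 104 CPM, against 3.21 to 10.8 in uninjured cells, with 6 of 7 called higher. Also called higher were 4 of 7 fibro-adipogenic, 3 of 7 endothelial and 4 of 7 macrophage markers. So were 2 of 7 pericyte and smooth muscle and 2 of 5 neutrophil markers tested. Of all genes 12.3% were called higher. The part of these cells in the differences was not tested.

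After injury of old mice all 10 genes moved, down for the Sprouty genes, Spred1, Dusp1 and Dusp6 and up for Spred2, Dusp4, Dusp5 and Dusp10. In oASC, 2.5 days after injury, 10 of 10 genes changed against oQSC (40.3% of all genes, 19% higher and 21.3% lower, of 30099 tested). Dusp1 went from 4584 and 4281 to 177 and 158 CPM (-4.73 ± 0.34, adjusted p = 2.41e-05), Spry1 from 138 and 218 to 19.6 and 14.8 (-3.37 ± 0.28, adjusted p = 4.39e-05) and Spry4 from 141 and 124 to 15.9 and 16.4 (-3.05 ± 0.24, adjusted p = 3.64e-05). Spred1 fell to 30.8 and 31.6 CPM (-1.62 ± 0.19, adjusted p = 0.000232) and Spry2 to 98.5 and 112 (-1.05 ± 0.23, adjusted p = 0.00738). Dusp4 had its highest level of all groups here, 22.2 and 26.6 CPM (3.67 ± 0.32, adjusted p = 5.88e-05), and so did Dusp10, 263 and 289 CPM (1.53 ± 0.21, adjusted p = 0.00062). The changes of Spred2 (1.06 ± 0.28, adjusted p = 0.0174), Dusp6 (-0.91 ± 0.26, adjusted p = 0.0226) and Dusp5 (0.82 ± 0.22, adjusted p = 0.0165) were smaller. The median over all genes was -0.33. Markers of other cells moved too: the fibro-adipogenic sum was 666 to 752 CPM in oQSC and 52.7 to 65 in oASC, and the endothelial sum 115 to 143 and 20 to 25.4, with 5 of 7 genes of each called lower. The pericyte and smooth muscle sum was 238 to 249.5 CPM in oQSC and 252 to 260.1 in oASC, with 5 of 7 called lower. Their part in the changes of the 10 genes was not tested.

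These calls depended on the libraries in the fit. With the spread estimated over all 30 libraries, 3 of the 10 genes passed (Dusp1, Spry1 and Spry4), and the adjusted p of the others was 0.087 to 0.705. Without oASC 1 or oQSC 1 6 of 10 passed. The adjusted p of Dusp6 was then 0.0514 to 0.176 without oASC 1, oASC 2, oQSC 1 or oQSC 2. For Dusp5 it was 0.0707 to 0.128 without oASC 1, oASC 2 or oQSC 1, for Spred2 0.144 without oASC 1 and 0.0844 without oQSC 1. For Spry2 it was 0.0863 without oASC 1 and 0.0563 without oQSC 1.

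In oFISC, the freshly isolated old cells, Dusp1 and Spry4 were lower than in oQSC and Dusp4 and Dusp5 higher. By their labels oFISC and oQSC differ both in fresh isolation and in BaCl2 injury, which cannot be told apart here. Of the 10 genes 6 differed (41.9% of all genes, 19.3% higher and 22.6% lower). Dusp1 was at 596 and 967 CPM (-2.88 ± 0.32, adjusted p = 0.00026), Spry4 at 43 and 28.5 (-2.29 ± 0.23, adjusted p = 0.000195), Dusp6 at 33.3 and 49.2 (-1.25 ± 0.26, adjusted p = 0.00679) and Spry1 at 106 and 106 (-1.13 ± 0.26, adjusted p = 0.00965). Dusp5 was at 38.6 and 40.6 CPM (1.14 ± 0.22, adjusted p = 0.00438) and Dusp4 at 6.56 and 4.7 (1.16 ± 0.31, adjusted p = 0.019). Spry2 (218 and 212 CPM), Dusp10 (75.2 and 95.7), Spred1 (104 and 113) and Spred2 (6.25 and 6.05) did not pass. Cell type markers differed too. Of 7 genes each, 4 were called lower for fibro-adipogenic cells, macrophages, and pericytes and smooth muscle, with 2 of the last list higher. Of 8 satellite cell markers 4 were lower and 1 higher. Myofibre markers summed to 615 CPM in oFISC 1 and 45.8 in oFISC 2, with 3 of 7 called higher. The part of these cells in the differences was not tested. The median of all genes was 0.52 in this comparison and 0.81 with RLE size factors in edgeR, with 5803 genes higher and 6804 lower in the former and 7480 and 5697 in the latter. No called gene of the 10 changed direction. With all 30 libraries in the fit 1 of 10 passed, Dusp1. Without oQSC 1 the adjusted p of Dusp4 was 0.104 and without oFISC 1 it was 0.0938. Spry1 had 0.0623 without oFISC 2 and 0.0507 without oQSC 2.

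**Figure D5:**
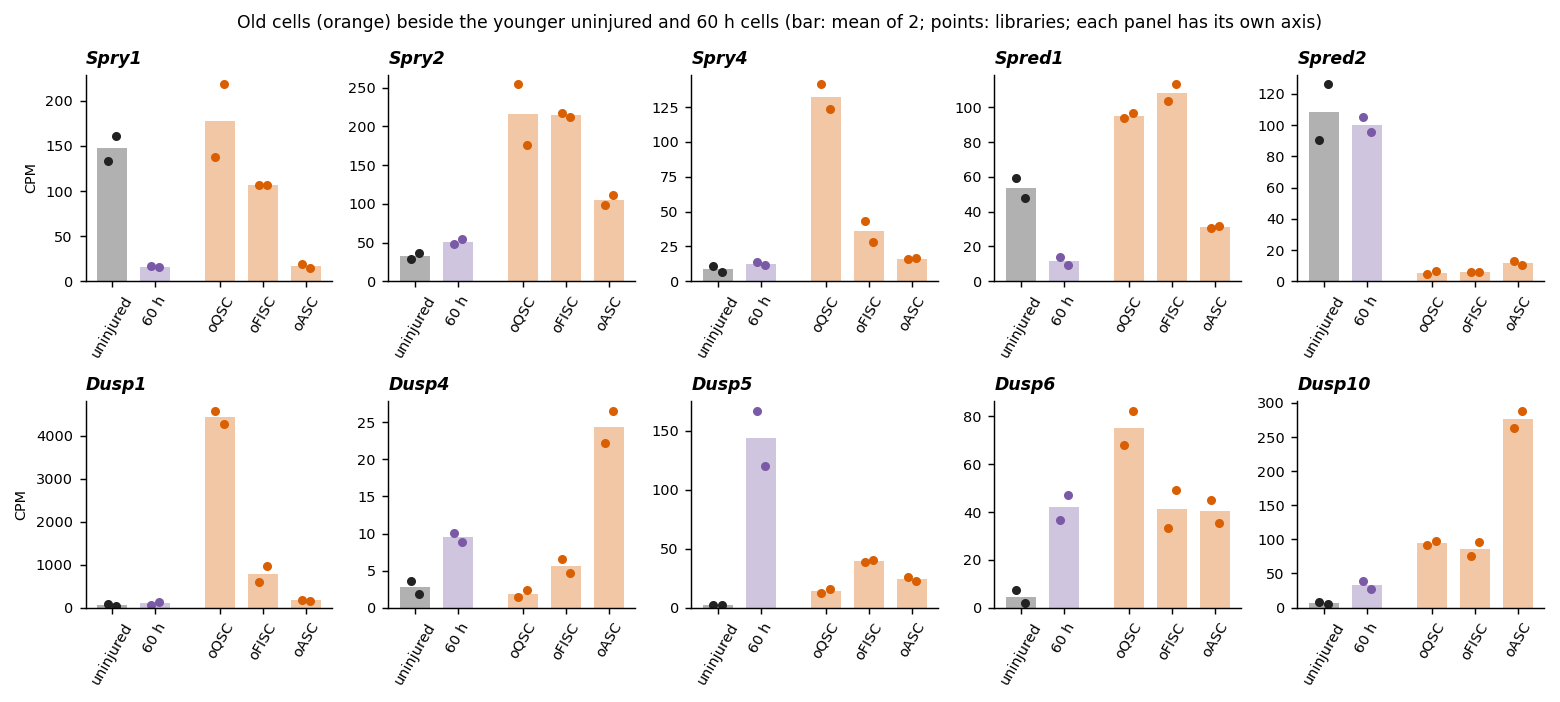
CPM of each gene in the 3 old groups (orange) beside the younger uninjured (black) and 60 h (purple) groups. Bars are means of 2 libraries, points the libraries, and each panel has its own axis from 0. Dusp1 and Spry4 are highest in oQSC, Dusp5 at 60 h, and Dusp4 and Dusp10 in oASC.

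The injury response of old cells was then set against that of younger cells, as oASC minus oQSC against 60 h minus uninjured, both sampled 60 h or 2.5 days after injury. The responses differed for 3 of the 10 genes (7.28% of all genes, 3.29% higher and 3.99% lower). Dusp1 fell in old cells and was 0.67 ± 0.76 higher in younger ones, a difference of -5.41 ± 1.05, adjusted p = 0.0033. Spry4 gave a difference of -3.51 ± 0.86, adjusted p = 0.0158 and Dusp6 of -4.14 ± 1.10, adjusted p = 0.0246. Spry1 fell in both, with a difference of -0.20 ± 0.62, adjusted p = 1. The levels after injury were 58.4 and 139 CPM (60 h) and 177 and 158 CPM (oASC) for Dusp1, and 36.7 and 47.2 and 45.2 and 35.4 for Dusp6, and the untreated levels lay farther apart. Without 1 library the adjusted p of Spry4 was 0.0534 to 0.117 without 60 h 1, 60 h 2, oASC 1, oASC 2, oQSC 1, uninjured 1 or uninjured 2. For Dusp6 it was 0.0638 to 0.157 without 60 h 1, 60 h 2, oASC 1, oASC 2, oQSC 1, oQSC 2 or uninjured 2.

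Other genes of the pathway, in lists chosen by function, moved in part with these 10. Of 15 genes known to be induced by ERK, 8 rose and none fell at 0.5 h, where 10.3% of all genes changed (median log2 change 4.00, all genes 0.24). They were Ier2, Ier3, Fos, Egr1, Egr2, Egr3, Phlda1 and Epha2. Fos, a subunit of the AP-1 factor, went from 71.9 ± 25.1 to 2454 ± 245 CPM (mean ± SD, n = 2; log2 5.05 ± 0.80, adjusted p = 0.00413). At 8 h 10 rose and 2 fell (Ccnd1 and Etv1; 30.1% of all genes changed), and at 60 h 6 rose and 1 fell (Epha4; 28.3% of all genes). At 60 h these included Etv4, an ETS factor downstream of growth factor receptors, which went from 0.372 ± 0.526 to 31.2 ± 2.09 CPM (log2 6.20 ± 0.98, adjusted p = 0.000893). From 60 h to 7 days 8 of 15 fell and none rose (16.8% of all genes changed). In oQSC 10 were higher and 1 lower (Ccnd1) than in uninjured cells (21.6% of all genes). In oASC against oQSC 10 fell and 4 rose (Etv4, Ccnd1, Epha2 and Etv5; 40.3% of all genes).

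Among 7 remaining genes of the Sprouty, Spred and MAPK phosphatase families, 6 were tested in the time course. Dusp2, a nuclear phosphatase, rose at each of the 8 times to 60 h, at 8 h from 1.57 ± 1.03 to 99.7 ± 18.2 CPM (log2 6.00 ± 0.69, adjusted p = 0.000874). Dusp9, a cytoplasmic phosphatase, also rose at each of them, from no count in uninjured cells to 30.4 ± 1.55 CPM at 60 h (adjusted p = 0.000593). In old cells Dusp8, which acts on JNK and p38, was at 251 ± 41.2 CPM in oQSC and fell to 10.3 ± 2.26 in oASC (log2 -4.61 ± 0.44, adjusted p = 9.16e-05). Errfi1, a feedback inhibitor of the EGF receptor on another list of 9 such inhibitors, rose from 109 ± 13.9 to 3756 ± 268 CPM at 8 h (log2 5.08 ± 1.23, adjusted p = 0.0116). It was the 1 gene of its list to rise there, while Rasa1 and Cblb fell, a share of the list near the 30.1% of all genes that changed.

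Genes of the kinase chains were counted beside the share of all genes that passed, 9.31% to 11% from 0.5 to 4 h and 30.1% at 8 h. Of 20 genes of the chain from Ras to ERK none passed at 0.5, 2 or 4 h and 1 fell at 1 h (Gab1). At 8 h genes of this list passed in both directions. Nras, a Ras protein, went from 49.7 ± 6.37 to 199 ± 1.47 CPM (log2 1.97 ± 0.54, adjusted p = 0.0189) and Ksr1, a scaffold of the kinase chain, from 65 ± 3.1 to 6.69 ± 0.728 (log2 -3.31 ± 0.73, adjusted p = 0.00826). Of 15 p38 and JNK kinase genes none passed from 0.5 to 4 h, and at 8 h 2 rose (Map2k3 and Mapkapk3) and 2 fell (Map2k6 and Mapk12), a share near that of all genes. Of 14 receptors and ligands 3 rose at 0.5 h (10.3% of all genes changed). One was Hbegf, a ligand of the EGF receptor, from 2.28 ± 0.797 to 172 ± 161 CPM (log2 6.22 ± 1.06, adjusted p = 0.00555).

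Across the 30 libraries the 10 genes did not form 1 block. Pearson's r of log2 CPM was 0.862 for Spry4 with Dusp1, 0.804 for Spry4 with Dusp6, 0.803 for Spry2 with Dusp10 and 0.802 for Dusp6 with Dusp10. Spred2 ran against Spry2 (-0.581) and Dusp1 (-0.573). With Myod1, r was 0.90 for Dusp10, 0.842 for Dusp6 and 0.815 for Spry2, and -0.0509 for Spry1. These are descriptions over libraries that share groups and count tables and differ in depth. By the same measure, among 6575 genes with a mean of at least 20 CPM, the patterns most like each gene were found. For Spry1 they were Arhgap24 (0.922), Prox1 (0.911) and Tgfbr3 (0.901), and for Spry2 Mphosph10 (0.936), Ppan (0.934) and Ptpn12 (0.93). Spry4 was nearest to Tgif1 (0.942), Tgoln1 (0.909) and Ifitm3 (0.903). Spred1 had Akap13 (0.908), Stat5a (0.905) and Smad1 (0.904), and Spred2 Zc3h7b (0.926), Rgp1 (0.921) and Scaf1 (0.92). Dusp1 had Sat1 (0.957), Lamp2 (0.952) and Saraf (0.947), and Dusp4 Arl6ip5 (0.875), Mindy3 (0.858) and Klhl21 (0.855). Dusp5 was nearest to D10Wsu102e (0.908), Slc1a5 (0.904) and Fosl1 (0.902). Dusp6 had Trmt10c (0.929), Manf (0.918) and Ncoa4 (0.914), and Dusp10 Dbr1 (0.949), Etf1 (0.944) and Qrich1 (0.943).

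In the order of group means, neighbouring groups mostly overlapped. Spry1 ran from 331 ± 7.2 CPM (SD, n = 2) at 0.5 h to 16.4 ± 0.923 at 60 h, and its top group did not overlap the next (4 h, 208 ± 39.8). Spry2 ran from 514 ± 33.8 at 8 h to 32.5 ± 4.95 in uninjured cells, with the groups from 8 to 16 h in that order all overlapping their neighbours. Spry4 ran from 133 ± 12.3 in oQSC to 6.29 ± 3.9 at 28 days, and its 3 top groups (oQSC, 8 h and 1 h) were each clear of the next. Dusp1 ran from 4432 ± 214 in oQSC to 61.5 ± 19.5 in uninjured cells, and oQSC was clear of the next group (0.5 h, 1217 ± 695). Dusp6 ran from 86.9 ± 4.66 at 8 h to 4.54 ± 3.85 in uninjured cells. Dusp10 ran from 276 ± 18.1 in oASC, overlapping 8 h (262 ± 21.9), to 6.63 ± 1.28 in uninjured cells. Dusp4 ran from 24.4 ± 3.1 in oASC, clear of 8 h (20.4 ± 2.04), to 0.48 ± 0.679 at 28 days. Dusp5 ran from 144 ± 33 at 60 h, overlapping 8 h, to 0 counts at 14 days. Spred1 ran from 119.9 ± 129 at 0.5 h to 11.6 ± 3.45 at 60 h.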

How the data were processed

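The authors deposited whole-number counts per gene for 30 libraries in 3 tables (time course, regeneration, old cells). Trimmomatic 0.36, HISAT2 2.1.0, StringTie 1.3.3, SAMtools 1.3 and the mm10 genome are listed, with no roles, in the submitters' processing notes, and per the labels' protocols cDNA was made with SMART-Seq v4 from polyadenylated RNA. The counter and its strand setting were not stated in labels or headers, and no molecular identifiers are mentioned, so amplified copies are counted. Libraries held 9.18 to 57.4 M counts.

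Counts were fitted with edgeR 4.0.16 (R 4.3.3): filterByExpr (minimum count 10, total 15), TMM scaling, quasi-likelihood F test, Benjamini-Hochberg adjustment over all genes of a fit, threshold 0.05. Of 4 fits, the time course had 22479 genes, regeneration 16954, old cells 30099 and all 30 libraries 28823. The SE is the absolute log2 change over the square root of F. Log2 CPM had a prior count of 2. Alternatives were DESeq2 1.42.0, scaling by RLE, no filter, a replicate block, leaving out ribosomal RNA models, other libraries in the fit, and leaving out each library. The fits were tested on simulated data.

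The 10 genes, all lists and the tests were chosen with earlier results of these data known. Text names the 10 genes throughout, Pax7 and Myod1 as context, from each list up to 4 genes with the smallest adjusted p (genes making up a small count are named besides), and for each of the 10 the 3 most correlated genes, passing over unnamed models. Counts for the chain from Ras to ERK at 8 h are not reported here.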

Additional observations from a re-analysis of the deposited data

Results flagged for a closer look

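The injury response of old cells (oASC minus oQSC) differed from that of younger cells (60 h minus uninjured) for 3 of the 10 genes, by an interaction term in edgeR's quasi-likelihood fit of all 30 libraries with Benjamini-Hochberg adjustment. The difference of the 2 log2 changes was -5.41 ± 1.05 for Dusp1 (adjusted p = 0.0033), -4.14 ± 1.10 for Dusp6 (adjusted p = 0.0246) and -3.51 ± 0.86 for Spry4 (adjusted p = 0.0158). Both old untreated libraries lay far above both younger ones for each of these genes. Without 1 library, Dusp1 was called each time, and the calls of Dusp6 and Spry4 were lost with adjusted p of up to 0.157 and 0.117, both without uninjured 2. Age and count table cannot be told apart in this comparison.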

How the results depend on the processing

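Of 64 called changes of the 10 genes, 16 were called in every setting run and 23 whichever library was left out; none of the 64 reversed in any setting. Over the settings other than leaving out a library, 360 of 384 values kept their call and 24 lost it, and of 268 values without 1 library 131 lost it. The counts of the 10 genes called moved as follows, and the cause was not tested. Shares of all genes are given above for the main fit only. Whether other genes moved alike cannot be read from these counts, nor from those without 1 library or with a block. With DESeq2 they became 7 (0.5 h, from 3), 7 (1 h, from 4), 5 (2 h, from 2), 6 (4 h, from 3), 5 (any change, from 3), 2 (7 and 14 days, from 1) and 1 (28 against 7 days, from 0). With no filter they became 7 at 0.5, 1, 2, 4 and 32 h (from 4 at 32 h), 9 (any change), 4 (7 days), 3 (14 days) and 5 (7 days against 60 h, from 3). With all 30 libraries in the fit they were 5 (0.5 h), 5 (any change), 1 (oFISC, from 6) and 3 (oASC, from 10). With only the groups compared in the fit they were 4 (7 days), 0 (14 days), 8 (7 days against 60 h) and 7 (old minus younger response, from 3). RLE size factors gave 3 at 16 h (from 5), where Spry4 (adjusted p = 0.0672) and Dusp5 (0.0562) were lost, and Spry2 in oQSC against uninjured cells was lost too (0.0533). The last was also lost without the ribosomal RNA models (0.0515).

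Without 1 library the counts ranged from 0 to 5 at 0.5 h, 0 to 1 at 1 h, 0 to 3 at 2 h, 0 to 4 at 4 h, 1 to 4 at 8 h, 0 to 3 at 16 h, 0 to 2 at 32 h, 1 to 2 at 60 h and 2 to 5 for any change. They were 0 for 60 against 32 h, 6 to 9 for oASC, 5 to 6 for oFISC, 4 for oQSC against uninjured cells (from 6), and 1 to 2 for the old minus younger response. Where 1 group was left with a single library, it was assumed to vary like the other groups.

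The differences between library 1 and library 2 were correlated over 105 pairs of groups. Here r ranged from -0.639 to 0.581 with a median of -0.0015, with 9 pairs over 0.1 and 11 under -0.1. Library 2 had more Myod1 at 0.5, 1 and 4 h, and library 1 at 2, 16 and 32 h. A median over all pairs cannot decide whether the numbers pair libraries in some groups. With the replicate number as a block 2 of the 10 genes were called at 1 h (from 4) and 3 at 16 h (from 5). The calls lost were Dusp6 at 0.5 h (adjusted p = 0.0567), 1 h (0.0647) and 4 h (0.0656), Spry4 at 1 h (0.0574) and 16 h (0.0578), Dusp10 at 8 h (0.0536) and Dusp5 at 16 h (0.0538). With 2 libraries per group the precision is limited.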
